A study of Homo sapiens with 4 samples.

Results

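Interferon-gamma with lipopolysaccharide (LPS) and no polarising agent were compared in macrophages derived from the cell line THP-1, which was established from a human acute monocytic leukemia. The genes described are those with a probe of known name that was detected on the M1 array, the M0 array or both, which was 9986 of 20045 annotated genes. Detected means a detection p-value below 0.01. M0 cells were unpolarised macrophages, and M1 cells were M0 cells given interferon-gamma and LPS. The series also holds M2a cells, given interleukin-4, and M2c cells, given interleukin-10, whose arrays entered the normalization and are quoted only as levels. All groups come from the same single line, and the doses, the exposure times and the agent that turned THP-1 cells into macrophages could not be taken from the labels and are not stated here.

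Each group had 1 Illumina BeadChip array, hybridised with labelled cRNA made from total RNA. No test was therefore possible, and array, culture and RNA preparation cannot be told apart from the treatment. A gene is called higher or lower where the arrays differed by at least 2-fold, which is 1 on the log2 scale, and "rose" and "fell" are used of such genes only. Values are background-corrected, quantile-normalized intensities on the log2 scale, and differences are M1 minus M0. A gene detected on 1 array only gets a bound ("at least"), set by the lowest value that counted as detected on the other array, which was 5.27 on M0 and 5.62 on M1. In bulk RNA, fewer cells with a transcript and less transcript per cell cannot be told apart.

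Interferon-gamma binds a receptor that signals through JAK kinases, and newly made IRF factors then act on interferon-stimulated response elements. LPS is a component of the outer membrane of Gram-negative bacteria that is sensed by TLR4 with CD14 and LY96, and it drives NF-kappaB, AP-1 and a wave of secreted interferon. Together they are the classical stimulus for a macrophage that kills microbes and presents antigen.

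The labelled cell type was checked first. All 19 macrophage and monocyte markers with a probe were detected on at least 1 array, and their summed linear level was 76023 on M0 and 63471 on M1. Of these markers 6 rose, led by the complement chain C1QB and the adhesion receptor ADGRE1, and 4 fell, which were CD14, CSF1R, ITGAM and LYZ. Of 10 epithelial markers 0 were detected, of 10 fibroblast markers 1 (DCN), and of 10 endothelial markers 1 (PECAM1). Of 11 T and NK cell markers 4 were detected, which were NKG7 on both arrays and CD2, CD247 and ZAP70 on M1 only, and CD3D, CD3E, CD3G and CD8A were undetected. CD2 went from 5.01 to 6.01 and ZAP70 from 4.82 to 5.97. Of 8 B cell markers 3 were detected, of which CD79B and BLNK read differences of 1.14 and 1.04 and CD79A 0.00 (1.18 on its other probe), while MS4A1 and PAX5 were undetected. Granule genes of immature myeloid cells were present on both arrays: ELANE, neutrophil elastase, read 12.43 on M0 and 12.57 on M1. MS4A3, a gene of granulocyte precursors, read 7.56 on M0 and was undetected on M1, at least 3.85-fold lower (-1.05 on the log2 scale for its other probes).

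Changes ran in both directions across the genome. Of the genes tested, 1494 were higher on M1 (15.0%) and 1902 were lower (19.0%), while 6590 lay within 2-fold. The rises were larger: 212 genes rose at least 8-fold, and 46 fell by as much. The middle of the distribution sat slightly below 0, with a median difference of -0.18 and quartiles at -0.81 and 0.54. The balance of directions depends on the scaling, since 61.3% of changed genes were higher with arrays scaled to a common median of the probes detected on all arrays and 19.4% with a common median of all probes, against 44.0% here. Those scalings moved the median of all genes by 0.26 and by -0.48, so families are read below against the median of all genes under the same scaling.

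**Figure D1:**
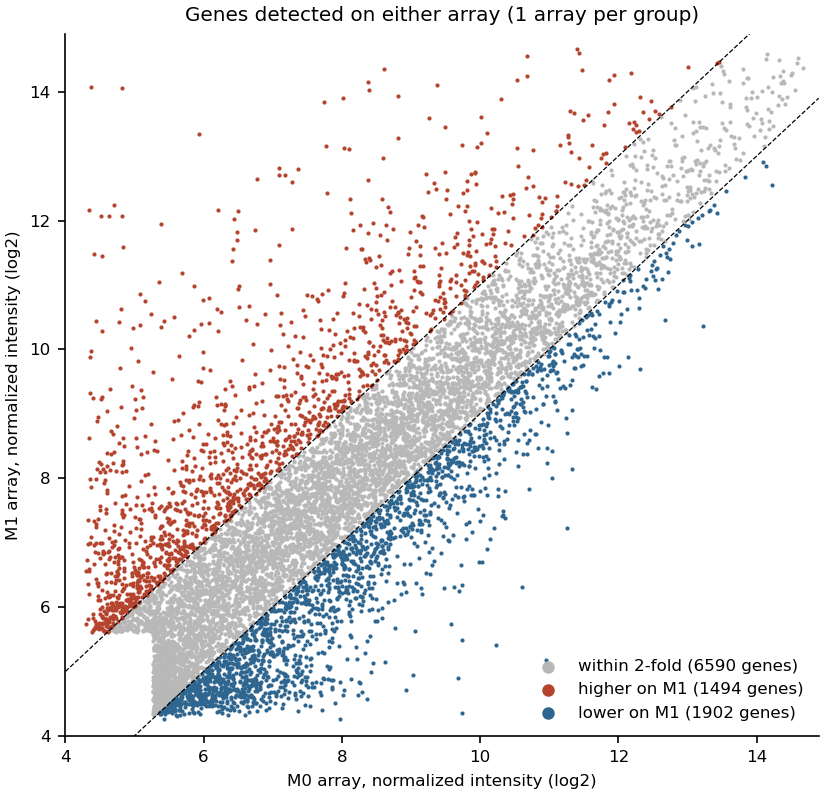
Normalized log2 intensity on the M0 array (x axis) and the M1 array (y axis) for the 9986 genes tested, 1 point per gene. Dashed lines mark 2-fold, with 1494 genes above the upper line and 1902 below the lower, and the points farthest from the diagonal lie above it.

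Detection itself differed between the arrays. On M1 alone 570 genes were detected (5.71%), and on M0 alone 1670 (16.7%). The excess lay among dim genes: in the dimmest of 5 nearly equal groups by level, 59.2% were detected on M0 only and 16.1% on M1 only. In the brightest group these shares were 0.100% and 0.951%, and there more genes rose (415) than fell (302). Level here is the higher of the 2 arrays' values, and the lowest detected value was 5.27 on M0 but 5.62 on M1. A gene with a level below 5.62 could therefore be detected on M0 only. How much of the excess in the dimmest group lay below that value was not tested. The M1 array detected 27.4% of its probes and the M0 array 31.4%, and the part of this difference in the losses of dim genes was not tested.

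The genome was read through 120 gene families, each taken by symbol pattern or by a list, that together hold 46.8% of the genes tested. A family is called shifted where its median lay at least 0.5 on the log2 scale from that of all genes under the main scaling, under the common median of probes detected on all arrays and in the authors' normalized table. By this rule 22 families were shifted up and 3 down, and the other 95 were not. Those shifted up are interleukins, chemokines, chemokine receptors, the TNF superfamily, sensors, costimulators, MHC class I and II, complement, serpins, BCL2 family and caspases, 3 interferon effector sets, ATF4 targets, histones, the SOCS and DUSP feedback sets, and the AP-1, IRF, STAT and NF-kappaB factors. Those shifted down are DNA replication, mitosis, and fatty acid synthesis.

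**Figure D2:**
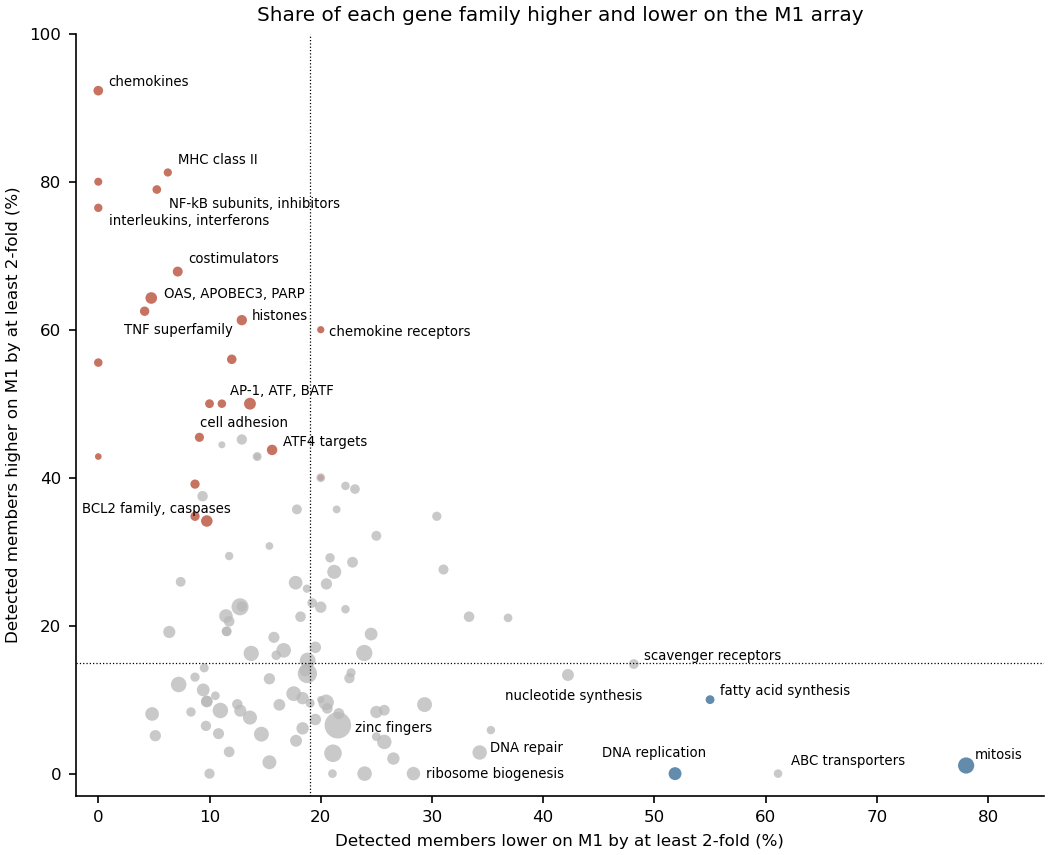
Share of detected members lower (x axis, %) and higher (y axis, %) on M1 by at least 2-fold for each of 120 families, with point area growing with family size. Dotted lines mark the shares over all genes (19.0% and 15.0%), red and blue mark the 22 families shifted up and the 3 shifted down. Chemokines stand at the top left and mitosis at the lower right.

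Interleukins and chemokines were shifted up. Of 17 detected interleukins and interferons 13 rose and 0 fell, with a median of 3.48. The 4 others were IL10 at 0.49, IL11 at 0.11, IL18 at 0.03 and IL25 at -0.49. IL10, a cytokine that restrains macrophages, read 10.37 on M0 and 10.86 on M1. Antiviral interferons appeared on the M1 array: IFNB1, interferon-beta, read 4.38 on M0 and 7.86 on M1, at least 6.03-fold higher, and IFNL1, a lambda interferon, read 4.33 and 6.35, at least 2.12-fold. Neither passed the detection threshold on M0. EBI3, a subunit of interleukin-27, went from 9.27 to 13.60, and its partner chain IL27 was at least 7.71-fold higher. Of 26 chemokines 24 rose and 0 fell, with a median of 3.83.

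Growth factors and other secreted proteins were divided. Among 24 growth factors of the VEGF, PDGF, BMP and related families 7 rose and 5 fell. VEGFC, which drives lymphatic vessel growth, went from 5.85 to 9.13, and BMP6, a bone morphogenetic protein that in liver controls hepcidin, was at least 10.7-fold higher. BMP8B went the other way, from 9.06 to 5.62. Of 25 IGF-binding proteins, serpins and protease inhibitors 14 rose, and this family was shifted up. SERPINB7 was at least 23.5-fold higher, and the C1 inhibitor SERPING1 rose from 6.21 to 12.16. RECK, a membrane inhibitor of metalloproteinases, fell from 9.07 to 6.37, while MMP14, a membrane-bound metalloproteinase, rose from 6.15 to 8.41 and ADAM19 was at least 10.2-fold higher.

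Complement genes were also shifted up, with 10 of 20 higher and 2 lower. C1QB, a chain of the recognition molecule C1q, went from 7.09 to 12.70 and CFB, factor B of the alternative pathway, from 6.09 to 9.68. C1S, a protease of the complement C1 complex, was at least 15.9-fold higher. C5, the source of the anaphylatoxin C5a, was undetected on M1 and at least 3.62-fold lower. In the coagulation list 5 of 14 rose and 3 fell. TFPI2, a protease inhibitor, was at least 17.3-fold higher, whereas F13A1, the transglutaminase that crosslinks fibrin, was at least 5.12-fold lower.

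Eicosanoid enzymes were not shifted as a family. Of 19 detected genes 4 rose, 7 fell and 8 lay within 2-fold. PTGS2, the inducible cyclooxygenase, went from 6.72 to 10.08, and PTGES, which turns its product into prostaglandin E2, was at least 15.9-fold higher. TBXAS1, thromboxane synthase, fell from 9.74 to 6.35. The leukotriene genes LTA4H (-1.87) and ALOX5AP (-1.10) also fell. PTGS1, the constitutive cyclooxygenase, read -2.65 on its brightest probe but 0.34 on its other probe, so its direction is uncertain. The phospholipases PLA2G4C and PLA2G7 rose by 1.55 and 1.34, and PLA2G4A, PLCB2 and EPHX2 complete the genes that were lower.

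Cytokine receptors changed in both directions. They had 10 of 28 higher and 5 lower and were not shifted as a family. IL7R and IL10RA, receptor chains for interleukin-7 and interleukin-10, rose by 3.62 and 3.23. IL15RA, which presents interleukin-15 to neighbouring cells, went from undetected on M0, at 4.44, to 10.44 on its brightest probe, while its other probe differed by 1.83. IFNGR1, the ligand-binding chain of the receptor for interferon-gamma itself, fell from 10.97 to 9.60. IL13RA1 fell from 10.12 to 8.16, and CSF1R, the receptor for the macrophage growth factor, from 13.16 to 11.63.

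Sensors of microbes were shifted up, with 22 of 44 higher and 6 lower. AIM2, a sensor of cytosolic DNA, went from 5.99 to 10.76 (1.93 on its other probe) and IRAK2, a kinase below Toll-like receptors, from 7.09 to 11.62. DHX58, a regulator of RNA sensing, rose by 3.10. The receptor of the LPS stimulus did not follow: CD14 went from 14.22 to 12.56 and LY96, which holds LPS against TLR4, from 11.28 to 10.08. STING1, the adaptor for cyclic dinucleotides, fell by 1.38 on the log2 scale. TLR4 itself read a difference of -0.92, within 2-fold.

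Phagocytic and scavenger receptors went down more often than up. Of 27 detected, 13 fell and 4 rose, with a median of -0.98, although the family missed the rule for a shift because its relative median in the authors' table was -0.37. CD163, the receptor for haptoglobin-haemoglobin complexes, went from 10.33 to 7.49. COLEC12, a collectin-type scavenger receptor, read 9.73 on M0 and was undetected on M1, at least 17.4-fold lower. ITGB5, an integrin chain for uptake of dying cells, fell by 2.62 and PROS1, the bridge between those cells and TAM receptors, by 1.73. AXL, a TAM receptor, rose from 9.38 to 10.75, while its relative MERTK fell from 10.48 to 8.88. TREM2, a lipid-sensing receptor, fell by 1.77.

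Chemotactic and purine receptors also changed in both directions. Of 10 chemokine receptors 6 rose and 2 fell. CCRL2, which binds but does not signal for chemerin, went from 5.79 to 10.20. CCR2, the receptor for CCL2, fell from 9.21 to 7.43, and CX3CR1, the fractalkine receptor, was at least 16.8-fold lower on its brightest probe (-1.41 on its other). Among 62 detected G protein-coupled receptors 16 rose and 11 fell, close to the shares over all genes on the falling side. ADORA2A, the adenosine receptor that restrains inflammation, was at least 33.6-fold higher, and ADORA3 fell by 1.83. P2RX7, the ATP-gated channel that triggers interleukin-1 release, was at least 20.9-fold higher.

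Of 28 costimulators and checkpoint ligands 19 rose and 2 fell, and the family was shifted up. Of 31 adhesion molecules 14 rose, 4 fell and 13 lay within 2-fold, and that family missed the rule for a shift, with a relative median of 0.48 in the authors' table. SLAMF7, a self-ligand of immune cells, went from 5.36 to 11.05 and ICAM1, the ligand of leukocyte integrins, from 6.97 to 11.38. VCAM1, a ligand of integrin alpha4, was at least 112-fold higher, with a log2 difference of 4.65 over its other probes. VSIR, the checkpoint protein VISTA, fell from 8.75 to 6.10. Of 18 integrins 4 rose and 4 fell: ITGA5 rose by 1.60, ITGA1 was at least 4.71-fold higher, and ITGAM and ITGA4 fell by 1.44 and 1.65.

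**Figure D3:**
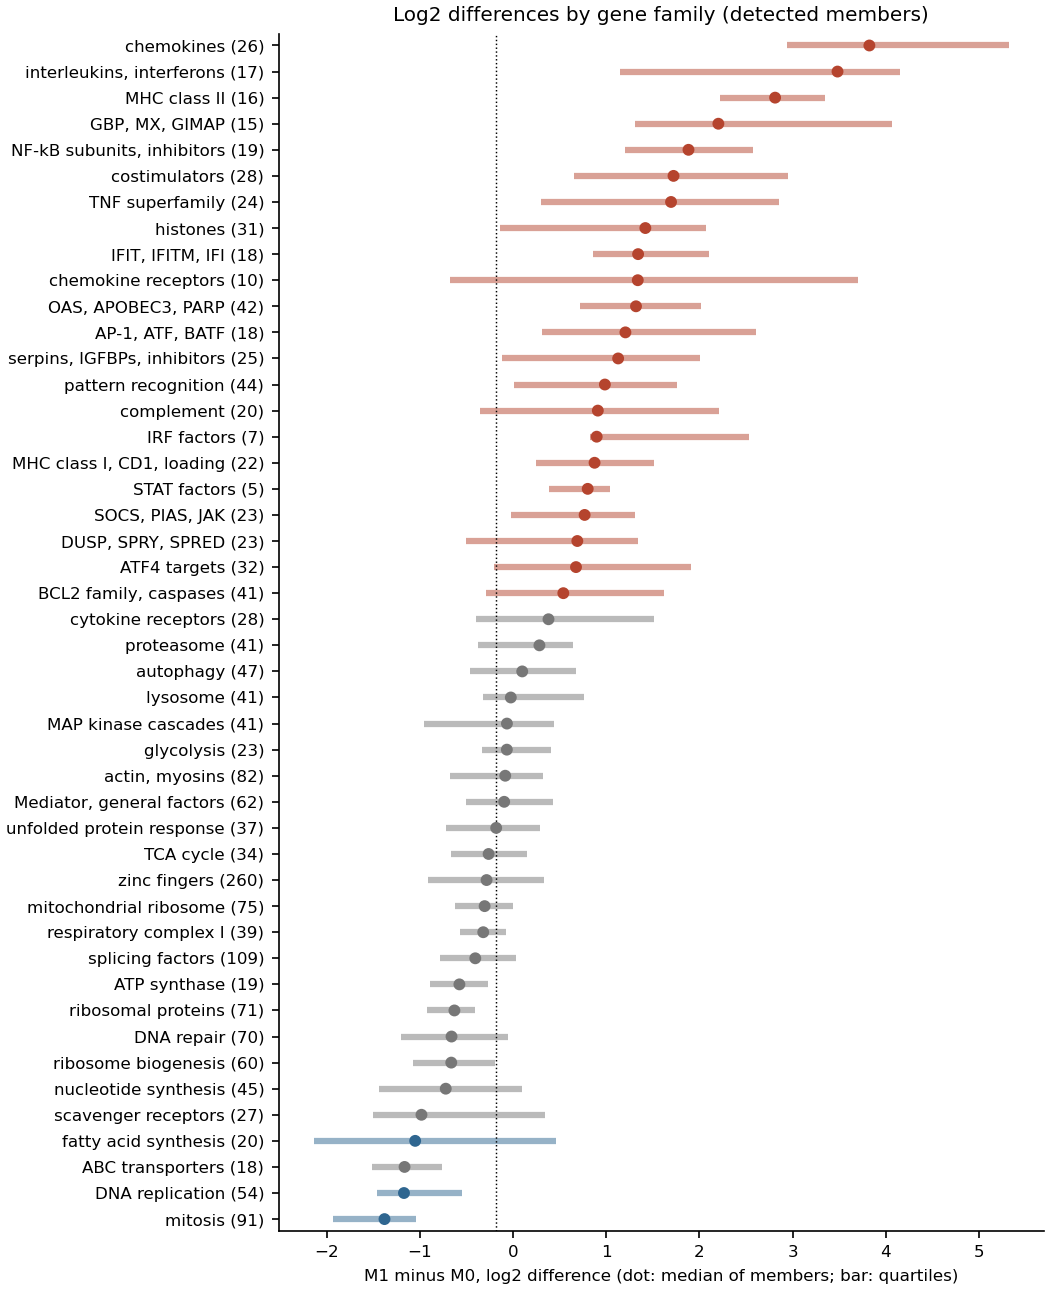
Median (dot) and quartiles (bar) of the log2 difference M1 minus M0 over the detected members of 46 families, with the number of members in brackets. Red marks families shifted up, blue those shifted down, grey the others, and the dotted line the median of all genes (-0.18). Chemokines lie highest at 3.83 and mitosis lowest at -1.38.

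Among signalling families those of NF-kappaB, SOCS and JAK-STAT, and DUSP genes were shifted up. Of 19 NF-kappaB subunits and inhibitors 15 rose and 1 fell. NFKB2, the p100 precursor, went from 5.92 to 9.51, TNIP1, a partner of the A20 enzyme, from 8.38 to 11.81 and BCL3, a nuclear inhibitor-like protein, from 7.64 to 10.78. CHUK, a kinase of this pathway, was the gene that was lower, by at least 1.99-fold. Among 23 SOCS, PIAS and JAK-STAT genes 8 rose and 2 fell. SOCS1, the feedback inhibitor of interferon signalling, was at least 10.2-fold higher, whereas PTPN11, the phosphatase SHP2, fell from 9.66 to 7.46.

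Dual-specificity phosphatases and Sprouty proteins, which switch off MAP kinases, had 9 of 23 higher and 2 lower. DUSP5 went from 6.45 to 12.02 and DUSP1 from 8.12 to 12.34. The MAP kinases themselves and their activators had 3 of 41 higher and 8 lower, a family median of -0.07. MAP2K3, an activator of p38, and MAP3K8, which links NF-kappaB p105 to ERK, rose by 2.21 and 1.72. Tyrosine phosphatases and kinases had 9 of 40 higher and 8 lower. PDE4B, which destroys cyclic AMP, went from 6.43 to 11.55 and the tyrosine kinase SRC from 5.97 to 10.39. RAB proteins (13 of 80 higher, 11 lower) and actin genes (7 of 82 and 9) stayed near or below the shares over all genes. The transmembrane proteins of unassigned function did so as well, with 18 of 133 higher and 25 lower, although TMEM140 rose from 5.86 to 10.98 and TMEM171 from 5.57 to 10.50.

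The AP-1, IRF, STAT and NF-kappaB factors were shifted up. The AP-1, ATF and BATF factors had 9 of 18 higher and 2 lower: BATF2 rose by 4.33, FOSL2 by 3.26 and ATF5 by 3.25, while MAF fell by 1.40 and FOS by 1.22. All 7 detected IRF factors can be listed. IRF1 went from 8.13 to 12.12, IRF7 from 9.95 to 13.14 and IRF2 from 7.18 to 9.06. IRF9, IRF3 and IRF5 read differences of 0.90, 0.85 and 0.81, within 2-fold, and IRF8 read -0.93. Of the 5 STAT factors measured here STAT4 rose by 3.27 and STAT6 by 1.04, STAT3 and STAT5A read 0.80 and 0.39, and STAT5B was undetected on M1 and read -1.28.

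Other factor families changed in both directions and were not shifted. Of 29 bHLH and MYC-network factors 8 rose and 9 fell, with HES4, a Notch effector, at 6.41 and 11.37 and MXD4, a MYC antagonist, at 9.16 and 6.21. Of 16 nuclear receptors 4 rose and 3 fell, and NR1H3, the oxysterol receptor LXR-alpha, went from 8.82 to 13.28 while RXRA, its dimer partner, went from 11.68 to 9.39. CEBPB rose by 2.08 and CEBPA, its relative in myeloid differentiation, fell by 1.49. DLL4, a Notch ligand, was at least 13.7-fold higher. Zinc finger genes of the C2H2 type, the largest family read here, had 17 of 260 higher and 56 lower, and 90 of them were detected on M0 only against 14 on M1 only. Their median relative to all genes was -0.10, their median level was 6.62, and the authors' table gave 7 higher and 6 lower. The lowest detected value was 5.27 on M0 and 5.62 on M1, and its part in these counts was not tested.

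Chromatin enzyme families were not shifted. Histone methyltransferases and demethylases had 2 of 45 higher and 8 lower, deacetylases, acetyltransferases and sirtuins 2 of 31 and 3, and remodellers 3 of 32 and 4. SMYD3, a lysine methyltransferase, fell from 11.33 to 8.14, and KDM6A, a demethylase of histone H3, was at least 3.31-fold higher. Mediator and general transcription factors had 5 of 62 higher and 3 lower.

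Of 31 detected histone genes 19 rose and 4 fell, with a median of 1.42. When they were divided by name, a division made after their values were seen, 16 of the 20 genes of the H2AC, H2BC, H3C and H4C clusters rose and 1 fell, with a median of 1.83. Their median relative to all genes was 2.02, 1.89 under the common median of probes detected on all arrays, and 1.04 in the authors' table. H2AC18 went from 9.22 to 12.72 and H2AC20 from 9.51 to 12.47. H2AC18 read 8.81 and 9.46 on the M2a and M2c arrays, so of the 4 arrays M1 was the highest.

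The remaining histone genes went no common way, with 3 of 11 higher and 3 lower and a median of -0.45. H2AZ1, a variant made throughout the cell cycle, fell from 13.21 to 12.09 and H3-3B, which encodes the H3.3 variant, from 8.22 to 6.88. H4C3 was the cluster gene that fell, from 12.51 to 11.14. Clustered histone transcripts are made in S phase and normally end in a stem-loop without a poly(A) tail. Their genes are nearly identical, so that a probe can read several of them, and single members are uncertain.

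Mitosis and DNA replication were shifted down. Of 91 mitosis and chromosome segregation genes 71 fell, 1 rose and 19 lay within 2-fold, with a median of -1.38. CDCA7, a chromatin factor of dividing cells, went from 9.48 to 6.30, NCAPG, a condensin subunit, from 8.77 to 5.67 and ASPM, a spindle pole protein, from 8.48 to 5.79. NEK2, a centrosome kinase, was at least 7.01-fold lower (-1.05 on its other probe). CDC25B, a phosphatase that activates mitotic CDK, was the gene that rose, by 1.14. The authors' table gave 38 of the 91 lower and 0 higher.

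Replication genes had 28 of 54 lower and 0 higher. TOP2A, the topoisomerase that untangles daughter chromosomes, went from 9.98 to 6.69, RFC4, a clamp loader subunit, from 9.46 to 7.10 and MCM10, a replication initiation factor, from 8.10 to 5.89. Of the 6 subunits of the MCM2 to MCM7 helicase 4 fell and MCM2 (-0.75) and MCM5 (-0.32) lay within 2-fold. DNA repair genes had 24 of 70 lower and 2 higher. PRKDC, the kinase of end joining, fell from 8.86 to 6.20, and DDB2, which recognises ultraviolet damage, rose by 1.73. The G1 regulators moved less, with 7 of 43 lower and 4 higher: CCNE1 fell by 1.89 and CDK6 by 1.71, and the inhibitors CDKN1B and CDKN1A rose by 1.16 and 1.08.

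**Figure D4:**
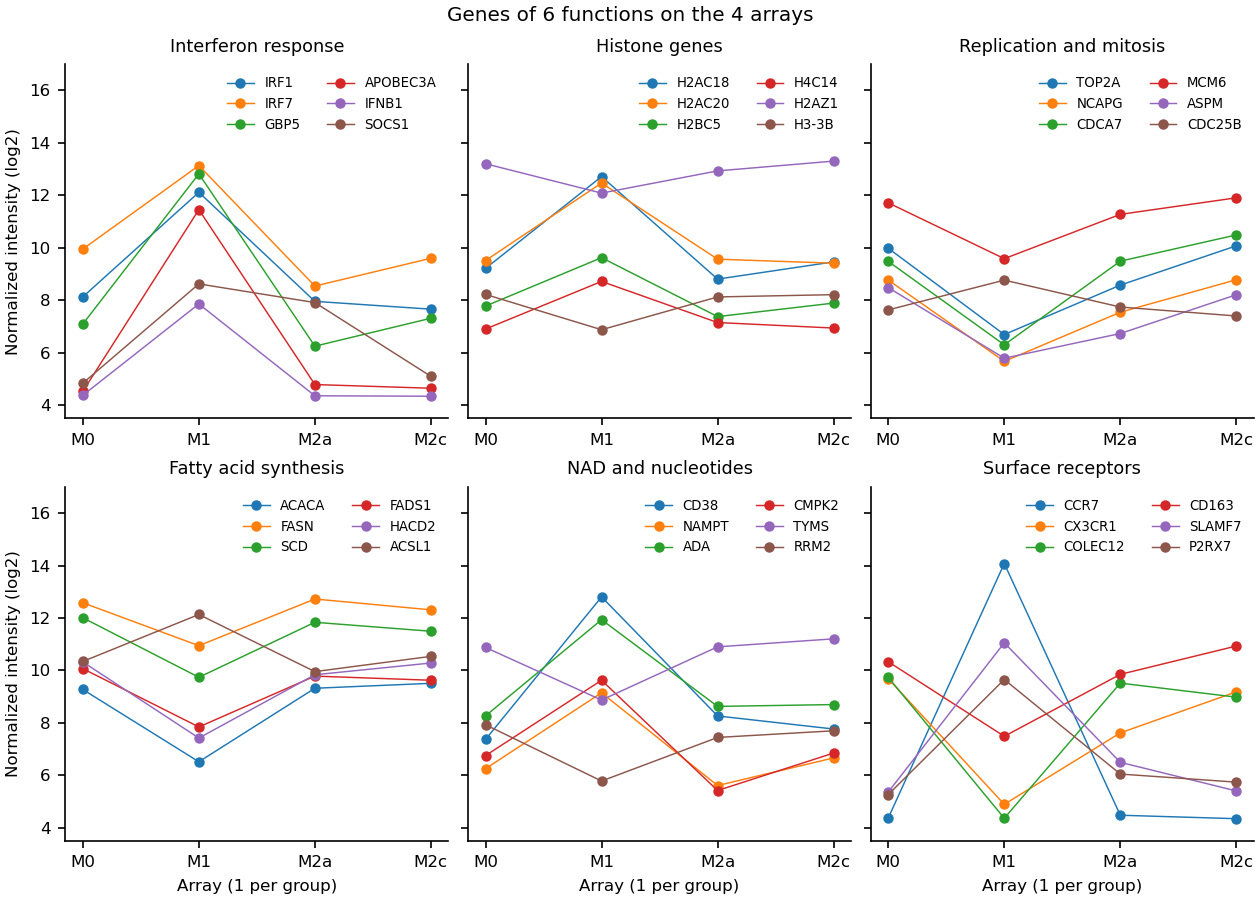
Normalized log2 intensity (y axis) of 36 genes in 6 functional groups on the 4 arrays (x axis), with lines joining the values of a gene. The H2AC genes peak on M1 while TOP2A, NCAPG, CDCA7, MCM6 and ASPM are lowest there, and the fatty acid synthesis genes dip on M1 except ACSL1.

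The families of RNA and protein production were not shifted. Ribosome biogenesis had 17 of 60 lower and 0 higher, with a relative median of -0.48, and RRP15, NOP58 and HEATR1, factors of pre-ribosome assembly, fell by 1.99, 1.75 and 1.75. Cytosolic ribosomal proteins had 17 of 71 lower and 0 higher, but 4 lower and 1 higher under the common median of probes detected on all arrays. Nucleoporins and karyopherins had 13 of 49 lower and 1 higher, splicing factors 23 of 109 and 3, and translation factors 10 of 65 and 1. Mitochondrial ribosomal proteins had 11 of 75 lower and 4 higher, but 7 lower and 7 higher under the common median of probes detected on all arrays. RNA polymerase subunits had 2 of 24 higher and 2 lower. The mRNA decay and AU-rich element regulators had 6 of 53 higher and 5 lower. Among them ZC3H12A, an RNase that cuts cytokine mRNAs, went from 8.45 to 11.96 and ZFP36, which binds AU-rich elements, from 9.08 to 11.06, while the decapping enzyme DCP2 fell from 8.93 to 6.24.

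Stress response lists were read separately. Of 32 ATF4 and integrated stress response targets 14 rose and 5 fell, and the family was shifted up. NUPR1, a stress-induced chromatin protein, went from 7.80 to 10.92 and SESN2, which restrains mTOR complex 1, was at least 4.37-fold higher. WARS1, the tryptophanyl-tRNA synthetase and also a known interferon-gamma target, rose by 3.65, while the synthetases EPRS1 and NARS1 on the same list fell by 1.40 and 1.35. The unfolded protein response list had 2 of 37 higher and 4 lower. HSPA5, the main chaperone of the endoplasmic reticulum, fell from 9.43 to 7.35. Heat shock proteins and chaperones had 8 of 74 higher and 13 lower, with HSPA1B, an inducible HSP70, at 9.04 on M0 and 10.92 on M1.

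Of 41 proteasome genes 4 rose and 4 fell, and the family was not shifted. The inducible catalytic subunits PSMB9, PSMB8 and PSMB10 rose by 3.12, 1.51 and 1.35, whereas the constitutive subunits PSMB5, PSMB6 and PSMB7 that they replace read 0.23, 0.44 and 0.57, within 2-fold. PSME2 of the PA28 activator rose by 1.75, the alternative activators PSME4 and PSME3 fell by 1.13 and 1.01, and the assembly chaperones PSMG1 and PSMG4 were also lower. Ubiquitin-conjugating and activating enzymes had 4 of 31 higher and 7 lower. UBE2L6 and UBA7, the conjugating and activating enzymes for ISG15, rose by 1.84 and 1.51. Of 34 TRIM ligases 7 rose and 4 fell: TRIM69 was at least 7.86-fold higher, and TRIM5, which recognises retroviral capsids, went from 7.34 to 9.63.

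Other ubiquitin families were not shifted. RING and HECT ligases had 13 of 85 higher and 16 lower, cullin substrate receptors 8 of 83 and 17, and deubiquitinases 7 of 41 and 8. Single members moved far: FBXO32, known as atrogin-1 in wasting muscle, went from 6.66 to 10.68, RNF19B from 8.17 to 11.86 and PELI1, an E3 ligase of Toll-like receptor signalling, from 6.30 to 9.13. SKP2, the F-box protein that targets CDKN1B, fell from 9.76 to 7.65. USP18, which removes ISG15, rose by 3.28, and USP1, a deubiquitinase of DNA repair, fell by 2.10.

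The BCL2 family and caspase list was shifted up, with 14 of 41 higher, 4 lower and 23 within 2-fold. In the pyroptosis set of CASP1, CASP4, CASP5 and GSDMD, picked out after their values were seen, all were higher: CASP4 and CASP1 both rose by 1.76, GSDMD, the pore-forming gasdermin, by 2.05, and CASP5 was at least 3.33-fold higher. The necroptosis genes MLKL and RIPK3 rose by 2.17 and 1.07, although RIPK3 ranged from 0.34 to 1.08 over the alternatives of processing. RIPK2, the kinase below NOD receptors, CFLAR, an inhibitor of caspase-8, and TRADD, an adaptor of TNF receptor 1, rose by 2.80, 2.75 and 2.19. The others that rose were PMAIP1, BCL2A1, BAK1, BCL2L13 and CASP9. CASP2, BIRC5, BIRC6 and BIK were lower.

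The 3 interferon effector sets were shifted up. Of 15 guanylate-binding proteins and other immunity GTPases 12 rose and 0 fell, of 18 IFIT, IFITM and IFI genes 10 rose and 0 fell, and of 42 OAS, APOBEC3, SAMD9 and PARP genes 27 rose and 2 fell. The pair that fell, PARP1 (-1.05) and PARP2 (-1.49), are DNA repair enzymes that the family name caught. APOBEC3A, a cytidine deaminase, was at least 72.9-fold higher. Several IFI genes that lay within 2-fold were already bright on M0: IFI6 read 14.16 and 14.58, and IFITM3 13.48 and 14.40. With arrays scaled to the common median of probes detected on all arrays, 16 of the 18 were higher. All 4 detected apolipoprotein L genes rose, led by APOL3, which went from 5.69 to 11.18.

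Promoter windows show the motifs that the counts below refer to, for genes of the families read here on chromosomes whose sequence could be printed. The first are the largest rises among these genes with an interferon-stimulated response element core. The rest are the largest falls among them with a cell cycle homology region (CHR). The sequences are RefSeq promoters of GRCh38.p14, from 250 bases before to 50 after the gene's start, 5′ to 3′ on the gene's strand, with the matched letters in capitals. CXCL9 (chr4:76007460-76007759, minus strand, 4.35 on M0 and 12.17 on M1), VCAM1 (chr1:100719492-100719791, plus strand, 4.64 and 12.07) and GBP4 (chr1:89198893-89199192, minus strand, 7.27 and 12.60) hold the response element core. TBXAS1 (chr7:139829014-139829313, plus strand, 9.74 and 6.35), TOP2A (chr17:40417847-40418146, minus strand, 9.98 and 6.69) and NCAPG (chr4:17810729-17811028, plus strand, 8.77 and 5.67) hold the CHR letters.
CXCL9: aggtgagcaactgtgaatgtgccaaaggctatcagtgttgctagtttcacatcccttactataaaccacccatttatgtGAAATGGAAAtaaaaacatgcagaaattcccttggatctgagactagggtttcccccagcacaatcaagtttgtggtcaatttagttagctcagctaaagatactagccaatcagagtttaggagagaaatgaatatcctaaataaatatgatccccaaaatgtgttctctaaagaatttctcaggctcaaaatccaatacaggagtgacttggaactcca
VCAM1: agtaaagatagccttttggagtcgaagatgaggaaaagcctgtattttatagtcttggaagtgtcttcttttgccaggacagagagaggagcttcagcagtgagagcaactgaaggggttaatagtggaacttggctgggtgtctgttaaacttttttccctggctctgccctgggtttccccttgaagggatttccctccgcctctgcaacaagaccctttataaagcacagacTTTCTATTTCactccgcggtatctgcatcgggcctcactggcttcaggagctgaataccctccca
GBP4: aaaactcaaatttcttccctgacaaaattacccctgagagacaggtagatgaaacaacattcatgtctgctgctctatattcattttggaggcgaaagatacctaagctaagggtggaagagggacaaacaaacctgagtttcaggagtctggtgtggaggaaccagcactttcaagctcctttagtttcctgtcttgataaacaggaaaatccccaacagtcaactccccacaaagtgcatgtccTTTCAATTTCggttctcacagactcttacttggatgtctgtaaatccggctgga
TBXAS1: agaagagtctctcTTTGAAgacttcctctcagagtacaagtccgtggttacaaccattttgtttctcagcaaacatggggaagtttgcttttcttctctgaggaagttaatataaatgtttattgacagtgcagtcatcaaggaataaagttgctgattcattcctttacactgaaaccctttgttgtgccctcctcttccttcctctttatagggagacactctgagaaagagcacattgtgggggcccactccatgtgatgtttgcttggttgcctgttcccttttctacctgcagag
TOP2A: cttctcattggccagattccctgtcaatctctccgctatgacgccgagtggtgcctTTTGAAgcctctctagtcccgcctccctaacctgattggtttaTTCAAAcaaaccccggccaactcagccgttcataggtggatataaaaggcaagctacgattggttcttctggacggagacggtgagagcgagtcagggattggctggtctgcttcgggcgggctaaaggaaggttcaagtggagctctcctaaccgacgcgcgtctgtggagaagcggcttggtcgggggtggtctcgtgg
NCAPG: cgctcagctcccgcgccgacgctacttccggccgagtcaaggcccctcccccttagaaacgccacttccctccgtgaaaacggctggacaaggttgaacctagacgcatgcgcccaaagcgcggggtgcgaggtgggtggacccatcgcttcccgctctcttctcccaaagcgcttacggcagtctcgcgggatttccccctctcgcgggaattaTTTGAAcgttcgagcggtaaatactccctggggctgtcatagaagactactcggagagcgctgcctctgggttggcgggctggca
The matches describe letters only and say nothing of binding.

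Motif shares were counted for 8168 tested genes with a promoter in the RefSeq table, on both strands. The response element core GAAANNGAAA occurred in 3.65% of all 27305 promoters in the table, in 7.80% of the 1154 higher genes, 1.93% of the 1552 lower genes and 2.47% of those within 2-fold. Over all genes tested the share was 3.12%, and among genes that rose at least 8-fold it was 13.9%. By family it was 68.8% of IFIT, IFITM and IFI genes (11 of 16), 45.2% of the OAS, APOBEC3 and PARP set (14 of 31) and 41.7% of the GBP set (5 of 12). In other families shifted up it was 10.5% of chemokines (2 of 19), 3.45% of histone genes (1 of 29) and 0 of 11 MHC class II genes. Cytosolic ribosomal proteins, a family not shifted, held it in 8.33% (5 of 60). In families shifted down it was 4.11% of mitosis genes (3 of 73) and 2.13% of replication genes (1 of 47). The gamma-activated site TTCNNNGAA, found in 7.88% of all promoters and 6.38% of genes tested, was in 9.19% of higher and 4.83% of lower genes. The NF-kappaB consensus was in 10.8% of all promoters and 13.1% of the genes tested. By direction it was in 16.4% of higher genes and 12.8% of lower genes, and among chemokines in 36.8% (7 of 19).

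Motifs of cell cycle promoters were counted in the same way. The CHR letters TTTGAA, found in 15.4% of all promoters, were in 56.2% of mitosis genes (41 of 73) and 2.13% of replication genes (1 of 47). The letters were in 10.2% of the genes tested, 13.8% of lower genes and 11.4% of higher genes. They were also in 41.7% of the GBP set (5 of 12), 36.4% of MHC class II genes (4 of 11) and 27.6% of histone genes (8 of 29), families shifted up, so the letters did not go with 1 direction. The E2F-type element (TTTCCCGC, TTTCGCGC, TTTGCCGC or TTTGGCGC), found in 3.33% of all promoters, was in 36.2% of replication genes (17 of 47) and 13.7% of mitosis genes (10 of 73). It was in 5.66% of the genes tested, 7.02% of lower genes and 3.73% of higher genes. The CCAAT box (CCAAT), found in 35.7% of all promoters, was in 79.3% of histone genes (23 of 29), 72.7% of MHC class II genes (8 of 11), 63.0% of mitosis genes and 57.4% of replication genes. The metal response core (TGCACNC or TGCGCNC) was in 29.3% of all promoters and 38.6% of the genes tested. It was in 34.7% of higher genes, below the share over the genes tested, and in 39.4% of lower genes. The cyclic AMP element (TGACGTCA) was in 1.98% of all promoters and 3.38% of the genes tested. Higher genes held it in 2.17% and lower genes in 3.41%. Matches of different motifs can share bases: of 529 promoters in the table with both a gamma-activated site and the CHR letters they overlapped in 144, and of 117 with both a response element core and a gamma-activated site in 14.

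**Figure D5:**
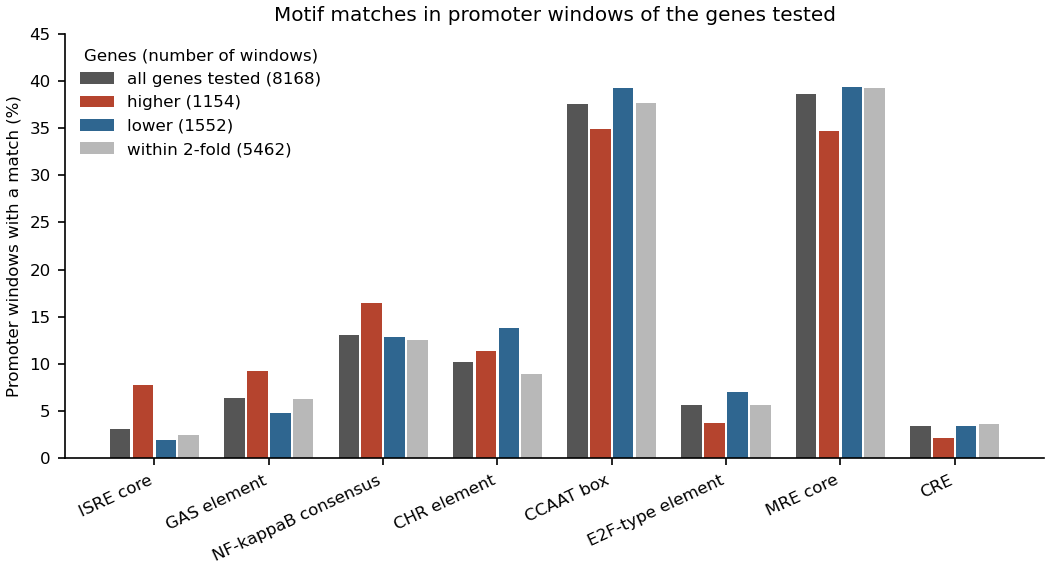
Share of promoter windows with a match (y axis, %, from 0) for 8 motifs, for all genes tested and for genes higher, lower and within 2-fold on M1. The response element core stands at 7.80% of higher genes against 1.93% of lower genes, and the CHR letters at 13.8% of lower genes against 8.93% of genes within 2-fold.

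Fatty acid synthesis was the metabolic family shifted down, with 11 of 20 lower and 2 higher. ACACA, which makes malonyl-CoA, went from 9.27 to 6.51, FASN, the synthase, from 12.58 to 10.94, SCD, the delta-9 desaturase, from 12.01 to 9.74 and FADS1, the delta-5 desaturase, from 10.07 to 7.84. HACD2, HACD3 and TECR of the elongation cycle fell by 2.90, 2.12 and 1.53. ACACB, SREBF1, SCD5 and OXSM, which were undetected on M1, complete the genes that were lower, and SREBF1 read -0.18 on its other probe. ACSL1, an acyl-CoA synthetase, rose from 10.34 to 12.13, and ELOVL7 was at least 3.29-fold higher. Cholesterol synthesis did not follow, with 3 of 21 higher and 2 lower, and LSS, lanosterol synthase, rose by 1.88.

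ATP-binding cassette transporters had 11 of 18 lower and 0 higher, with a median of -1.17. They missed the rule for a shift because their relative median was -0.44 in the authors' table, and 9 of the 18 were detected on M0 only. ABCB10, a mitochondrial transporter of haem-forming cells, fell by 1.56, ABCG1, a cholesterol exporter, by 1.29, and ABCC4 was at least 3.16-fold lower. FABP4, a fatty acid binding protein, fell from 10.02 to 6.70. In fatty acid oxidation and peroxisomes 12 of 48 fell and 4 rose, and the family was not shifted. Its median relative to all genes was 0.0076, and the authors' table gave 5 lower and 3 higher. Among the members that fell, catalase, CAT, went from 10.84 to 8.48 and HADH from 11.34 to 9.07. Sphingolipid enzymes leaned up, with 7 of 27 higher and 2 lower, and SPHK1, which makes sphingosine-1-phosphate, went from 7.16 to 9.73.

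Of 45 nucleotide synthesis and salvage genes 19 fell and 6 rose, and the family was not shifted. PFAS of purine synthesis fell from 8.41 to 6.19, and TYMS and RRM2, which supply deoxynucleotides, fell by 2.01 and 2.15. ADA, which destroys adenosine, went from 8.27 to 11.93, and CMPK2 and NT5C3A, nucleotide enzymes known to respond to interferon, rose by 2.87 and 2.48. In one-carbon metabolism 6 of 17 fell and 1 rose, which was the mitochondrial enzyme MTHFD2, at 9.85 and 11.30.

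Tryptophan and NAD genes had 8 of 20 higher and 4 lower. CD38, which consumes NAD, went from 7.37 to 12.80 and NAMPT, which salvages nicotinamide into NAD, from 6.25 to 9.15. IDO2 was at least 8.64-fold higher beside IDO1, and NADK, NMRK1 and KYNU rose by 1.81, 1.32 and 1.27. KMO, NMNAT3, AFMID and QPRT were lower, of which QPRT, the entry from tryptophan into NAD, went from 12.60 to 11.46. In polyamine metabolism SMOX, SAT1 and PAOX, which acetylate and oxidise polyamines, rose by 2.26, 2.01 and 1.73, while ODC1, the first enzyme of their synthesis, fell by 1.38.

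Central carbon metabolism was mostly within 2-fold. Of 23 glycolysis genes 3 rose and 2 fell: SLC2A6, a sugar transporter of lysosomes, by 2.63, HK2, a hexokinase, by 1.94 and PFKFB3, which makes the activator of phosphofructokinase, by 1.35. In the tricarboxylic acid cycle 4 of 34 fell, and the gene that rose was ACOD1, which diverts cis-aconitate into itaconate. ACO1 fell from 10.10 to 7.73 and SUCLA2, a subunit of succinyl-CoA synthetase, from 8.36 to 6.93. Complex I had 2 of 39 higher and 2 lower, complexes III and IV 0 of 30 and 3, and ATP synthase 0 of 19 and 4. Relative medians of the respiratory chain and ATP synthase families lay between -0.43 and -0.02 over the 3 scalings.

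Redox, vitamin and metal genes held large changes in both directions. CYP27B1, which makes active vitamin D, read 4.83 on M0 and 11.60 on M1, at least 80.4-fold higher, within a P450 family that had 4 of 13 higher and 2 lower. HSD11B1, which regenerates cortisol, went from 6.97 to 9.68. SOD2 and HMOX1, the mitochondrial superoxide dismutase and haem oxygenase, rose by 3.26 and 3.18, against falls of 2.37 for CAT, 1.96 for MGST3 and 1.65 for GCLC. Metal ion transporters and metallothioneins had 10 of 35 higher and 8 lower. The metallothionein MT2A went from 7.77 to 13.16, and its relative MT1M was at least 16.7-fold higher. TFRC, the transferrin receptor, fell from 11.87 to 9.63 and STEAP3, an endosomal iron reductase, from 8.47 to 6.37. Amino acid transporters had 10 of 26 higher and 6 lower, with SLC43A2, a carrier of large neutral amino acids, at 7.50 and 10.85.

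Lysosomes and membrane traffic changed in few members. Lysosomal hydrolases and membrane proteins had 4 of 41 higher and 4 lower: LAMP3, also called DC-LAMP, rose by 4.43, whereas FUCA1, a fucosidase, fell from 11.04 to 8.41 and GALC from 10.26 to 7.84. LGMN, the asparaginyl endopeptidase of antigen processing, rose by 2.78. Autophagy genes had 9 of 47 higher and 3 lower, with MAP1LC3A at 9.95 and 11.97. SNX10, EHD1, RAB20 and STX11, proteins of endosomes, phagosomes and granule fusion, rose by 3.06, 2.40, 2.95 and 3.55. ATP6V0D2, a subunit of the proton pump, was at least 3.01-fold lower, and VPS36 of the ESCRT-II complex at least 4.61-fold lower.

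The longest runs of neighbouring higher genes lay mostly in known clusters, whereas many shorter runs and the lower runs mostly held no shared family. Over all genes tested 15.0% were higher and 19.0% lower. How many runs these shares alone would give was not tested. Along the RefSeq gene order of detected genes, the longest run of higher genes held 11 members of the MHC class II region, from HLA-DRA through the TAP and PSMB genes to HLA-DMA. Further runs were 8 genes from FCGR1A into a histone cluster, 7 genes of another histone cluster, 7 metallothioneins and 6 GBP genes including the pseudogene GBP1P1. A run of 6 with no shared family held PACSIN3, DDB2, ACP2, NR1H3, MADD and SPI1, with differences from 1.06 to 4.46. The butyrophilins BTN3A2, BTN3A1, BTN3A3 and BTN2A1, relatives of B7 costimulators, all rose beside H4C8. The longest runs of lower genes held 7 each, with no shared family, and a run of 5 held TYMS with THOC1, USP14, COLEC12 and TYMSOS. Neighbours with similar sequence can share probe signal, so runs of paralogs are not independent readings.

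Killer cell immunoglobulin-like receptor (KIR) genes, which encode receptors of natural killer cells for MHC class I, were read on the M1 array alone. They were picked out after their values were seen, in a run of 5 neighbours. Of 14 with a probe, 7 were detected on M1 and 0 on M0, with log2 differences of 2.29 or more. KIR2DL4 read 5.16 on M0, 10.76 on M1, 5.04 on M2a and 5.27 on M2c, at least 44.9-fold higher on M1 than on M0, with a log2 difference of 3.38 over its other probes. KIR3DL2 and KIR3DL1 were at least 7.19-fold and 5.87-fold higher. Of 10 killer cell lectin-like receptor genes, another family of those cells, 1 was detected. That gene was KLRG1, detected on M0 only, at 5.35 on M0 and 4.58 on M1. CD3D, CD3E, CD3G and KLRD1 were undetected. On the T and NK list CD2, CD247 and ZAP70 were detected on M1 only, as the KIR genes were, with M1 levels of 6.01, 5.65 and 5.97. NKG7 read 9.45 on M0 and 9.46 on M1, and the summed linear level of that list was 957 on M0 and 1049 on M1. KIR genes are close in sequence, so a probe can read several of them and the number of expressed genes is uncertain.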

How the data were processed

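Total RNA of 4 cell groups of THP-1 was labelled as cRNA and hybridised to Illumina BeadChips, 1 array per group. The deposited probe intensities, not normalized, and the detection p-values beside them come from the authors' scan, read with GenomeStudio per the submitters' processing notes. The authors' normalized intensity table was used as an alternative. From the intensities, limma 3.58.1 in R 4.3.3 (neqc: normexp background with an offset of 16, with negative control values inferred from the detection p-values, quantile normalization over the 4 arrays, log2) gave the values reported. Of 47228 probes, 30111 had 1 gene symbol, 8 had several and 17109 are unnamed here. Each gene took the probe brightest over the 4 arrays. Tested genes were detected (p-value below 0.01) on M1 or M0. Medians, counts and motif matches were computed in Python 3.11.15 and checked on simulated data. With 1 array per group no test was run, and the number of arrays limits the precision. Families have at least 5 detected genes. For each family the genes named were drawn from the 3 largest rises and falls past 2-fold among genes detected on both arrays. They were also drawn from the largest bound in each direction and from sets whose members are all accounted for. Not every gene picked this way is named, so a named gene need not be the largest change of its family. Other genes, and the divisions of histone, proteasome, MCM, caspase, APOL, BTN and KIR genes, were named after their values were seen. Members and lists were chosen with earlier results of these data known.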

Additional observations from a re-analysis of the deposited data

How the results depend on the processing

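With 1 array per group no array could be left out. No paired analysis was possible because each group had 1 array and no test was run. The number of genes higher on M1 (1494) became 847 in the authors' normalized table, 846 without background correction, 515 at 4-fold, and 844 with arrays scaled to the common median of all probes, a setting chosen after seeing the data. The number lower (1902) became 796, 795, 347 and 3497 under those settings in that order, and also 1236 with the common median of probes detected on all arrays, 1208 with an offset of 50 and 1121 among genes detected on both arrays. The last tests fewer genes, 4-fold is a stricter rule, and for the others the cause was not tested. Normalizing the M1 and M0 arrays alone gave 1451 higher and 1824 lower. Of 120 family medians relative to all genes, 9 no longer lay 0.5 from 0 in the authors' table and 2 with the common median of probes detected on all arrays, where 6 others newly did. Of 298 genes named, 231 passed 2-fold under every alternative that gave them a value. Rises that did not include RIPK3, CDC25B (log2 differences from 0.48 to 1.22), CDKN1B (0.51 to 1.26) and STAT6 (0.56 to 1.30). Falls that did not include PARP1 (-1.21 to -0.47), H2AZ1 (-1.27 to -0.53) and ALOX5AP (-1.28 to -0.54). Dim genes lie closest to background and are read least surely. Of the dimmest of 5 groups by level 59.2% were detected on M0 only. The lowest detected value was also lower on M0 (5.27) than on M1 (5.62), and the cause of the difference in detection was not tested.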
